A study of Mus musculus with 12 samples.

Results

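The cytosolic ribosomal protein genes encode the proteins of the ribosome that translates nuclear-encoded mRNA. They were chosen by name alone, as all count-table rows called Rpl or Rps with a number and at most the letter a, x or y, plus Rpsa, Rplp0, Rplp1 and Rplp2. This gave 76 of 23420 genes, 46 of the large and 30 of the small subunit. No measured value entered the choice.

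Each ribosome holds 1 copy of nearly every protein, so cells make the set in balanced amounts, together with ribosomal RNA from RNA polymerase I and a large crew of assembly factors. Most of these mRNAs start with a C followed by a run of pyrimidines, the 5′ terminal oligopyrimidine tract, through which the kinase mTOR and the protein LARP1 set their translation and stability. Some ribosomal proteins also act outside the ribosome, and a few that bind Mdm2 when free are known to stabilise p53. In liver, a large share of translation goes into plasma proteins.

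RNA from whole liver of C57BL/6 mice was sequenced in 12 libraries, 2 for each of 6 groups. Every group carries floxed Gdown1 alleles; Gdown1 is the product of Polr2m and binds RNA polymerase II. The FF group is Gdown1 flox/flox without Cre, and the KO group adds Alb-Cre, a recombinase driven by the hepatocyte promoter of albumin; both were taken at 7 weeks. The p53KO group is Gdown1 flox/flox and labelled p53-/- (gene Trp53), and the DKO group adds Alb-Cre to that genotype; both were taken at 8 weeks. The p53KO TAM and DKO TAM groups carry the same labels for both genes. Their livers were collected 24 hours after a tamoxifen dose, and in DKO TAM this drug switches on the inducible Alb-CreERT2. The genotype given for p53KO TAM names no Cre, and the titles give no age for either tamoxifen group. Cre goes with the deletion in all 3 comparisons of deleted with control livers, and both change at once, so they cannot be told apart. The labels do not say that the 2 libraries of a group come from separate animals, so each p-value reflects only how far these libraries spread. Libraries are named by group and replicate, and the 2 DKO libraries carry the numbers 2 and 3.

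Library totals ran from 4939408 to 8776369 counts. Polr2m stood at a log2 fold change of -0.67 in KO against FF, -0.70 in DKO against p53KO (0.07 with library totals) and -0.36 in DKO TAM against p53KO TAM, where it missed the threshold (adjusted p = 0.063, edgeR). Levels are given as CPM, the count scaled to a library of fixed size. Trp53 stood at 13.1 and 7.94 CPM in FF, 3.07 and 2.79 in p53KO, 8.39 and 8.12 in DKO, 3.78 and 3.96 in p53KO TAM and 8.95 and 10.004 in DKO TAM. It was thus called higher in DKO than in p53KO (1.48, adjusted p = 0.00050) and in DKO TAM than in p53KO TAM (1.29, adjusted p = 0.0039), with all 4 groups labelled p53-/-. The labels do not say which part of Trp53 is deleted, so counts over the whole gene do not check the label. The summed level of 10 hepatocyte markers was 116077 to 119622 CPM in FF and 67412 to 78264 in KO, 129797 to 132084 in p53KO and 38524 to 40825 in DKO, and 125773 to 127005 in p53KO TAM and 59045 to 61318 in DKO TAM. Albumin is 1 of the 10 and weighs heavily in this sum. Called lower were 6 of the 10 in KO, 10 in DKO and 5 in DKO TAM, with median log2 fold changes of -0.52, -1.76 and -0.57. Stellate and fibroblast markers summed to 374 to 386 CPM in p53KO and 1395 to 1457 in DKO, and dividing cell markers to 57.0 to 67.7 and 1014 to 1021. Dividing cell markers also summed to 42.6 to 70.9 CPM in FF and 136 to 138 in KO, and to 56.9 to 58.8 in p53KO TAM and 111 to 150 in DKO TAM, with 3 and 5 of the 6 called higher. Of 8 endothelial markers, 4 were called lower in DKO TAM against p53KO TAM. In whole liver, fewer cells of a type and less RNA per cell cannot be told apart. All 9 stellate and fibroblast markers and all 6 dividing cell markers were called higher in DKO against p53KO, and so were 7 of 8 macrophage markers and 5 of 6 tested cholangiocyte markers. The part of these shifts in the ribosomal protein results was not tested.

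How libraries are put on 1 scale decides much of what follows. CPM values below are scaled by TMM, the trimmed mean of M-values of edgeR, which takes most genes as unchanged; its factors ran from 0.826 to 1.412. The other scale divides by the library total alone. Albumin mRNA alone took 5.90% to 5.95% of counts in p53KO and 2.21% to 2.71% in DKO. Library totals move the median over all 13693 genes tested (log2 fold change) from 0.02 to 0.28 in KO against FF, from 0.01 to 0.77 in DKO against p53KO and from 0.01 to 0.36 in DKO TAM against p53KO TAM. Both scales are given for many results. Where a gene has a value on the TMM scale alone, its direction can turn with library totals.

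The starts of 56 of the 76 genes matched the RefSeq promoter table (assembly GRCm38.p6). A C at an annotated start followed by at least 4 C or T was found in 13 of the 56 (23.2%). The same held for 813 of all 27025 genes with an annotated start (3.01%) and 0 of 69 mitochondrial ribosomal protein genes. A gene with several starts counts once, if any of them has the feature. The windows shown hold the 40 bases before the annotated start and the first 10 transcribed bases, 5′ to 3′ on the gene's strand, with the run of C and T that begins at the start in capitals. Rpl15, Rps6 and Rpl28 are shown because they were among the lowest in KO against FF, Rps21 and Rpl35a because they were low in DKO against p53KO, Rpl35 and Rps15a because they share such a run and missed the threshold there, and Rps9 because it was low in all 3 comparisons with no run at the annotated base. The windows lie at chr14:18270977-18271026 (Rpl15, minus strand), chr4:86857358-86857407 (Rps6, minus), chr7:4792925-4792974 (Rpl28, plus), chr2:180257339-180257388 (Rps21, plus), chr16:33056442-33056491 (Rpl35a, plus), chr2:39005122-39005171 (Rpl35, minus), chr7:118116138-118116187 (Rps15a, minus) and chr7:3704001-3704050 (Rps9, plus).
Rpl15: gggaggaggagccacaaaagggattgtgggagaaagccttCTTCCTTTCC
Rps6: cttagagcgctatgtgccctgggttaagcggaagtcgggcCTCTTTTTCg
Rpl28: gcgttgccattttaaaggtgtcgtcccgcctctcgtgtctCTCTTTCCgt
Rps21: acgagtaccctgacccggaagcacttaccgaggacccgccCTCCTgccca
Rpl35a: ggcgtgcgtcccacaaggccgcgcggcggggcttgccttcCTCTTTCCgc
Rpl35: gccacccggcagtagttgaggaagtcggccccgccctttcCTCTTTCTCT
Rps15a: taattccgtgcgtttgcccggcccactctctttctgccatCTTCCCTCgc
Rps9: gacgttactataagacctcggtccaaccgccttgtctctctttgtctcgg
The run in Rpl15 goes on past the window to 13 bases. Only a run at the annotated base was counted, and none found there says nothing of a start a few bases away. The letters CGGAAG, the core that ETS family factors bind, were searched on both strands of the 250 bases before the start. They stood in 31 of the 56 genes (55.4%), in 15.3% of all genes with an annotated start and in 44.9% of mitochondrial ribosomal protein genes. GGGCGG, the GC box, stood in 50% of the 56 against 35.4% of all genes. CACGTG, the E-box, stood in 8.93% against 6.86%, and TATAAA, the TATA box, in 5.36% against 14.3%. A match describes letters in a window and is neither a binding site nor a cause.

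Levels of the genes can be compared with each other only per length, as RPKM, which divides TMM-scaled CPM by the gene length of the count tables in kilobases. The median of the 76 genes over all libraries was 55.1 RPKM, and 54 of them lay within 3-fold of it. Rps23, a protein of the decoding centre, was highest at 365 RPKM, followed by Rpl13a at 362, the stalk protein Rplp1 at 315 and Rpl4 at 255. At the other end, Rpl26 had 0 counts in every library, Rpl30 had 20 counts over all 12 libraries, Rps27 had 31, and Rpl34 stood at 2.44 RPKM. A count of 0 allows up to 3 counts. Divided by the library total alone, without TMM, that is 0.342 to 0.607 CPM depending on the library. This bound covers counting error only.

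Ribosomal protein genes have many processed pseudogenes, and reads that fit several places can be lost or shared. Of all windows of 50 bases in a member's transcripts, a median of 38.4% also occur in transcripts of another gene (GENCODE, GRCm38), and in 26 members over 50% do. Rpl7a shares windows with 121 pseudogenes. The share was 72.8% for Rpl30, 46.2% for Rps27 and 44.0% for Rpl26. It was 95.1% for Rpl35 and 51.7% for Rps23, both of which were well counted. The 26 members with over 50% of windows shared had a median of 74.4 RPKM and the others 47.8. The cause of the low counts of Rpl26, Rpl30 and Rps27 was not tested, and the levels of members with many shared windows are uncertain.

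**Figure D1:**
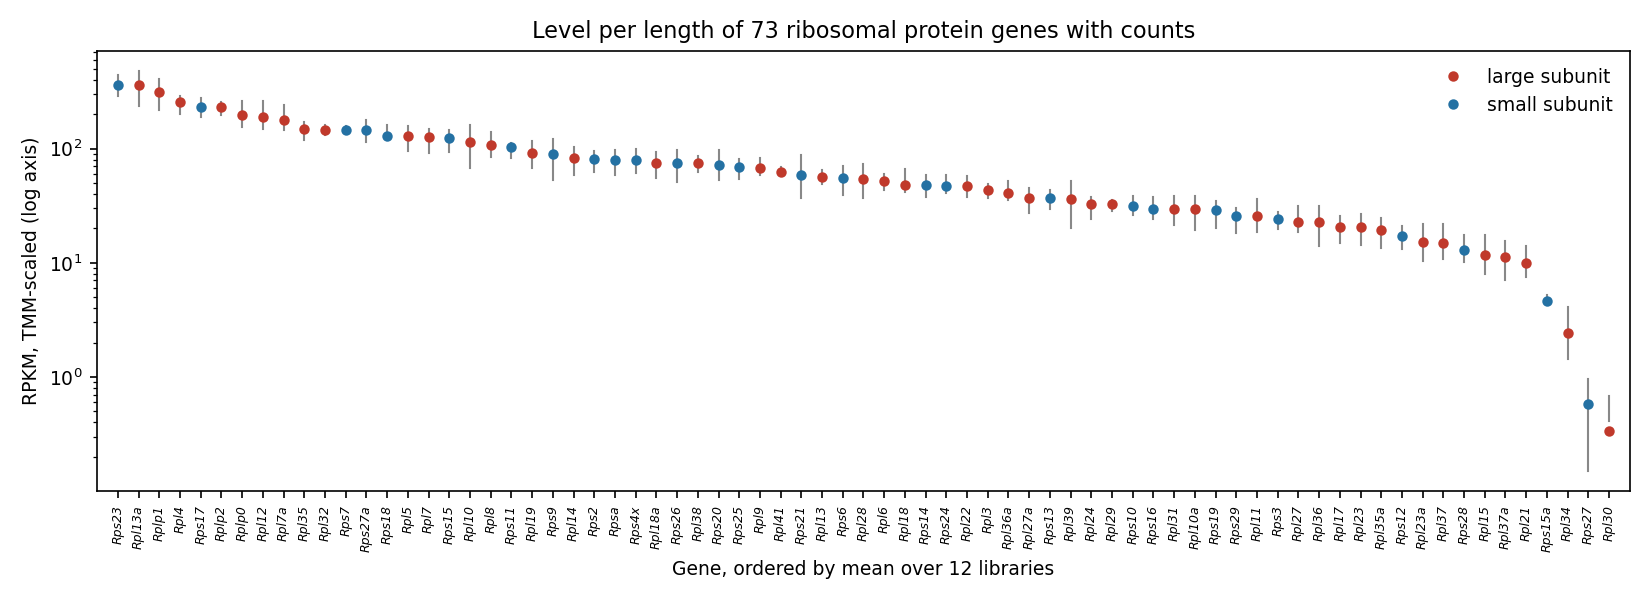
Mean level of 73 of the 75 ribosomal protein genes with counts (2 are not shown), in RPKM on a log axis, ordered from high to low; points are means over 12 libraries, red for the large and blue for the small subunit, and lines span the 6 group means (a group mean of 0 is not drawn). Most genes lie within 3-fold of the median of 55.1 RPKM, and Rps27 and Rpl30 stand far below at 0.58 and 0.33.

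Summed over all 76 genes, ribosomal protein mRNA took close to 0.5% of the counts. Its share was 0.509% and 0.474% in the 2 FF libraries and 0.490% and 0.428% in KO. It was 0.493% and 0.435% in p53KO and 0.539% and 0.603% in DKO, where the groups do not overlap and DKO is higher. It was 0.514% and 0.490% in p53KO TAM and 0.482% and 0.560% in DKO TAM, with overlapping groups. On the TMM scale the order turns for DKO. The sums were then 5678 and 5544 CPM in FF, 4571 and 4215 in KO, 5965 and 5232 in p53KO, 3836 and 4275 in DKO, 5923 and 5767 in p53KO TAM, and 4403 and 5127 in DKO TAM. On that scale both deleted libraries lie below both controls in each of the 3 comparisons.

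The ratio of large to small subunit counts does not depend on the scaling. Counts of large subunit genes were 1.77 and 1.72 times those of small subunit genes in FF, 1.80 and 1.77 in KO, 1.75 in both DKO libraries, 1.81 and 1.86 in p53KO TAM, and 1.86 and 1.87 in DKO TAM. The widest spread was within the p53KO controls, at 1.97 and 1.70. The first p53KO library also had 1.95% of its counts on genes of ribosomal RNA, against 0.687% in its partner and 0.589% to 1.64% elsewhere. Against albumin, ribosomal protein counts were 0.0857 and 0.0961 per albumin count in FF and 0.160 and 0.129 in KO. The same ratio was 0.0834 and 0.0730 in p53KO, 0.244 and 0.223 in DKO, 0.0819 and 0.0791 in p53KO TAM, and 0.250 and 0.311 in DKO TAM.

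**Figure D2:**
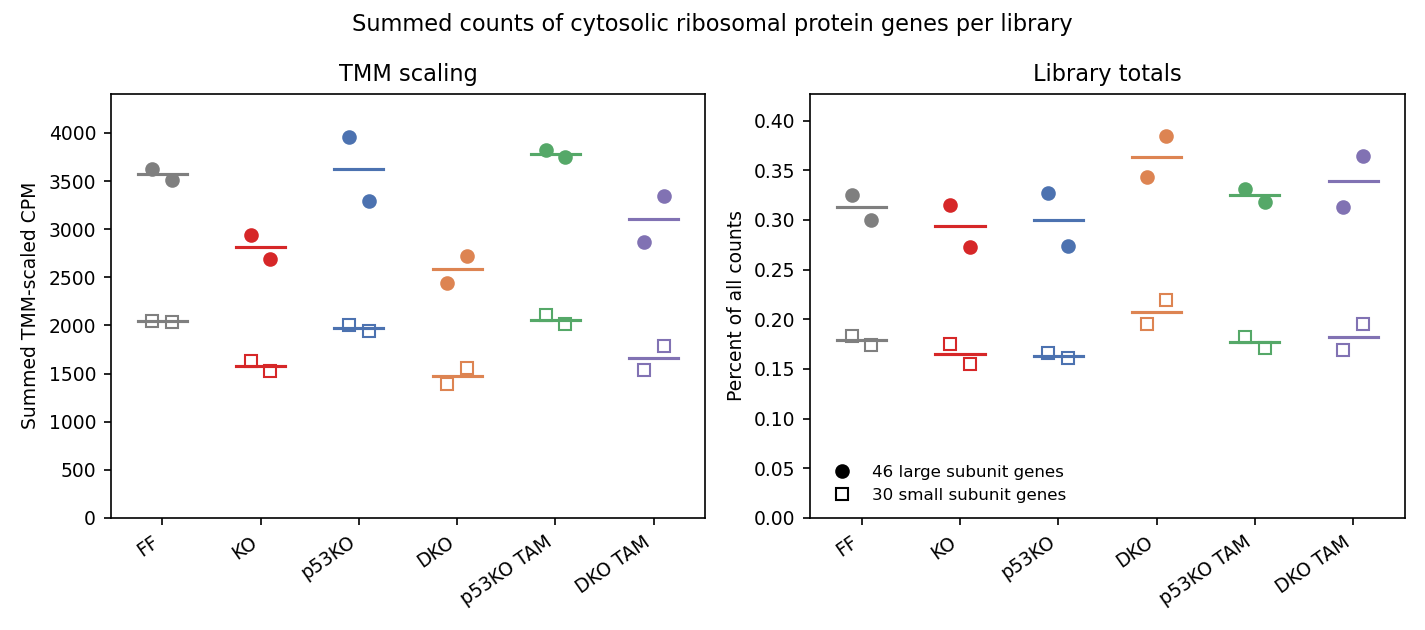
Summed level of the 46 large subunit genes (filled circles) and 30 small subunit genes (open squares) in each library, with group means as lines, in TMM-scaled CPM (left) and as percent of all counts (right). On the TMM scale DKO lies below p53KO for both subunits, and as a share of all counts it lies above.

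Of the 76 genes, 73 had enough counts to be tested; Rpl26, Rpl30 and Rps27 did not. In KO against FF, which asks what loss of Gdown1 in hepatocytes changes while p53 is present, 14 of the 73 fell on the TMM scale (edgeR quasi-likelihood test, adjusted p under 0.05) and 59 did not pass. With library totals 3 were lower and 1 higher. Over all genes tested, 7.88% were called lower and 6.92% higher with TMM, and 4.02% lower and 20% higher with library totals. None of the members was called higher with TMM, with 0 at an unadjusted p under 0.05 and 0 with DESeq2. The 14 were 7 of 44 large and 7 of 29 small subunit genes. The median log2 fold change of the 73 was -0.29, against 0.02 for all genes.

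In DKO against p53KO, the same loss in livers labelled p53-/-, 33 of 73 fell on the TMM scale, 18 of the large and 15 of the small subunit, and with library totals none did and 28 were higher. Over all genes tested, 25.7% were called lower and 25.7% higher with TMM, and 7.01% lower and 64.3% higher with library totals. The members' share of higher calls with library totals is thus below that of all genes, and their share of lower calls with TMM above it. On the TMM scale none was called higher (0 at an unadjusted p under 0.05, 0 with DESeq2). The median of the 73 was -0.47 on the TMM scale and 0.29 with library totals.

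In DKO TAM against p53KO TAM, taken a day after the switch, 14 of 73 fell and 1 rose on the TMM scale, while with library totals 2 were lower and 8 higher. Over all genes tested, 10.1% were called lower and 8.61% higher with TMM, and 4.28% lower and 31.7% higher with library totals. The 14 were 7 genes of each subunit. The median of the 73 was -0.22 on the TMM scale and 0.13 with library totals.

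The median of the 73 less that of all genes was a log2 value of -0.31 in KO against FF, -0.48 in DKO against p53KO and -0.23 in DKO TAM against p53KO TAM on the TMM scale. A scaling moves all genes of a comparison by nearly the same amount, so this distance is nearly the same on every scale by construction and is no sign of stability. Below the all-gene median lay 66 of 73 members (90.4%) in KO against FF, 69 (94.5%) in DKO against p53KO and 62 (84.9%) in DKO TAM against p53KO TAM. On the TMM scale 54 members (74.0%) had a log2 fold change below 0 in all 3 comparisons, which share no library, as did 24.2% of all genes tested. Log2 fold changes on that scale ran from -1.11 (Rpl34) to 0.28 (Rps19) in KO against FF, from -1.55 (Rpl34) to 0.24 (Rps15a) in DKO against p53KO and from -1.14 (Rps9) to 0.53 (Rpl18) in DKO TAM against p53KO TAM. The 2 groups did not overlap for 43, 50 and 40 of the 73 members, close to or under the share of all genes tested (56.3%, 77% and 59.5%), so this count says nothing particular of the members. Lower calls on the TMM scale came in 3 of 3 comparisons for 7 members (9.59%), in 2 for 10 (13.7%), in 1 for 20 (27.4%) and in none for 36 (49.3%). Of all genes tested, 3.70% were called lower in 3 comparisons, 6.30% in 2, 20.003% in 1 and 70.0% in none.

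**Figure D3:**
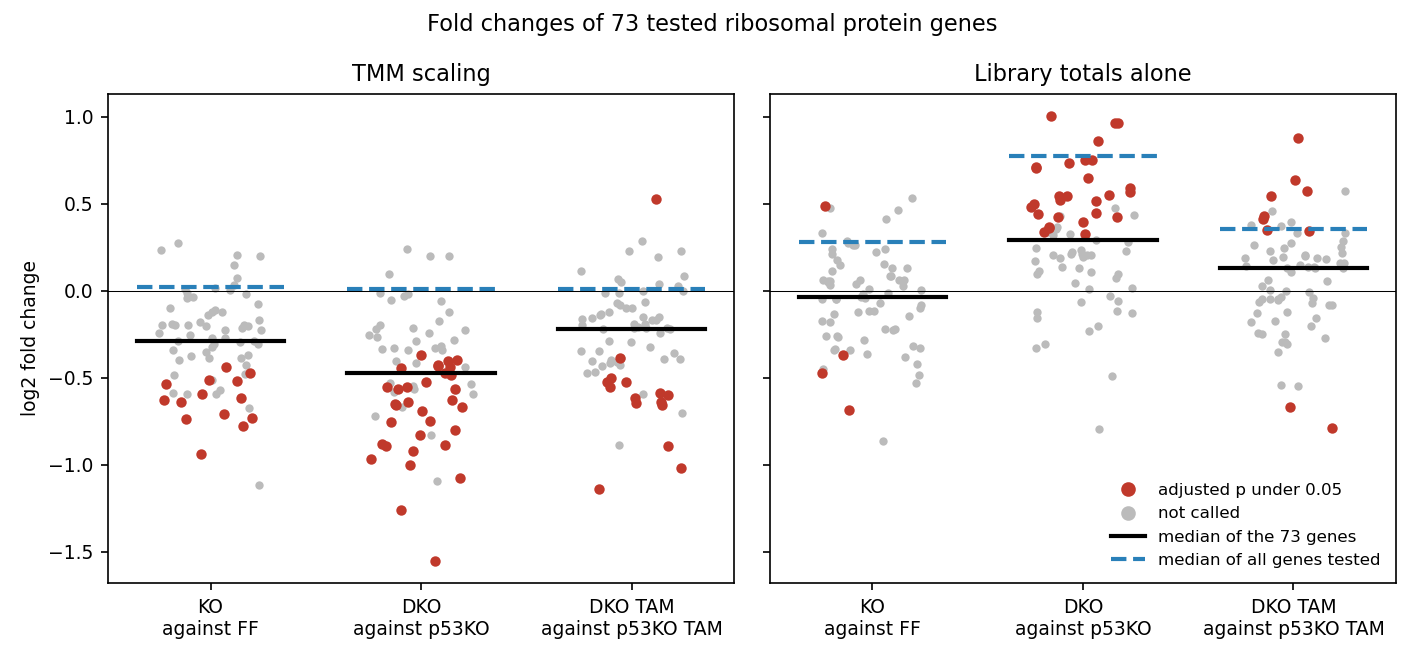
log2 fold changes of the 73 tested ribosomal protein genes in the 3 comparisons with TMM scaling (left) and library totals (right); each point is a gene, red where the adjusted p is under 0.05, the black line is the median of the 73 and the dashed blue line that of all genes tested. In DKO against p53KO the genes lie below 0 with TMM (median -0.47) and mostly above 0 with library totals (median 0.29).

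The counts rest in part on single libraries. Lower calls in KO against FF numbered 9 without FF 2 and 4 without KO 2. For DKO and p53KO they numbered 20 without p53KO 1 and 14 without DKO 2. In DKO TAM against p53KO TAM they numbered 3 without p53KO TAM 1 and 6 without DKO TAM 1. With the summed counts of the ribosomal protein genes themselves as library size, which reads each gene against the set as a whole, 1 member was called lower and 2 higher in KO against FF, where 2.64% and 22.6% of all genes were. On the same scale 3 were lower and 5 higher in DKO against p53KO (9.85% and 44.1% of all genes), and 3 lower and 3 higher in DKO TAM against p53KO TAM (3.73% and 21.2%).

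The 7 genes that fell in all 3 comparisons on the TMM scale were Rpl8, Rpl15, Rps2, Rps4x, Rps6, Rps9 and Rps27a; they are named because of these calls. None of the 7 kept all 3 calls when each library was left out in turn. With library totals all but Rps6 turn to log2 fold changes above 0 in DKO against p53KO, where Rps27a (0.36) and Rps4x (0.40) are then called higher.

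Rpl15, a protein of the large subunit core (chromosome 14, 18267823 to 18270986, minus strand, mm10), stood at 35.7 and 28.3 CPM in FF and 17.3 and 15.9 in KO. The groups do not overlap, and the log2 fold change was -0.94 ± 0.18 (SE, adjusted p = 0.0023). It was also lower with library totals (-0.68, adjusted p = 0.016) and against the summed members (-0.59, adjusted p = 0.046). Levels were 23.2 and 25.9 CPM in p53KO and 20.1 and 16.4 in DKO, and 24.0 and 20.4 in p53KO TAM and 13.9 and 15.6 in DKO TAM. Those groups do not overlap either, with log2 fold changes of -0.43 ± 0.17 (adjusted p = 0.048; 0.34 with library totals) and -0.60 ± 0.18 (adjusted p = 0.028). Each of these 2 calls is lost when any of 3 libraries is left out, with library totals and with DESeq2 (adjusted p = 0.17 and 0.078). That in DKO against p53KO is also lost with RLE (adjusted p = 0.059) and upper quartile scaling (0.33). It is further lost with no filter on low counts (0.053), with only the libraries compared (0.080) and with a replicate block (0.061).

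Rpl8, which lies near the peptidyl transferase centre, stood at 123 and 119 CPM in FF and 81.4 and 75.1 in KO, clear of each other. It fell by 0.63 on the log2 scale (SE 0.12, adjusted p = 0.0028) and stayed called with library totals (-0.37, adjusted p = 0.045). Rpsa, the small subunit protein also known as the laminin receptor, stood at 173 and 190 CPM in FF and 118 and 100 in KO. Its log2 fold change was -0.73 ± 0.15 (adjusted p = 0.0035), and -0.47 with library totals (adjusted p = 0.033). Rpl15, Rpl8 and Rpsa were the only 3 members called lower in KO against FF with TMM, RLE, upper quartile and library total scaling alike, and each stayed called without any one library. Over all genes, 4.02% were called lower and 6.77% higher with all 4 scalings in that comparison. No member was called with all 4 in DKO against p53KO (7.01% of all genes lower, 25.7% higher). In DKO TAM against p53KO TAM, 2 members were lower and 1 higher with all 4 (4.27% and 8.39% of all genes).

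Rps6, the small subunit protein that S6 kinases phosphorylate, stood at 104 and 87.2 CPM in FF and 54.3 and 57.0 in KO. Its log2 fold change was -0.78 ± 0.20 (adjusted p = 0.019), a call lost without FF 1, KO 1 or KO 2 (adjusted p 0.12, 0.12 and 0.088). In p53KO it stood at 114 and 80.6 CPM and in DKO at 51.1 and 58.9, a log2 fold change of -0.83 ± 0.20 (adjusted p = 0.0030; -0.06 with library totals, adjusted p = 0.80). In p53KO TAM it stood at 114 and 81.6 CPM and in DKO TAM at 55.2 and 73.4, a log2 fold change of -0.62 ± 0.20 (adjusted p = 0.043). That call is lost without DKO TAM 1 (adjusted p = 0.24) or p53KO TAM 1 (0.36). In all 3 pairs the deleted livers lie below the controls on the TMM scale.

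Rps9, which sits where mRNA enters the small subunit (chromosome 7, 3704041 to 3706897, plus strand), had the lowest log2 fold change of all 73 in DKO TAM against p53KO TAM. It stood at 88.6 and 75.1 CPM in p53KO TAM and 33.8 and 40.9 in DKO TAM, a log2 fold change of -1.14 ± 0.17 (adjusted p = 0.00019). With library totals it was -0.79 (adjusted p = 0.0027), against the summed members -0.84 (adjusted p = 0.0011), and it stayed called without any one library. In FF it stood at 92.8 and 77.8 CPM and in KO at 65.7 and 53.6, a smaller difference of -0.51 ± 0.16 (adjusted p = 0.046) that is lost without FF 1, FF 2 or KO 2. In p53KO it stood at 82.9 and 63.4 CPM and in DKO at 42.3 and 48.5 (-0.69 ± 0.16, adjusted p = 0.0020; 0.07 with library totals).

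Rps9 belongs to 5 tested proteins of the decoding centre and the mRNA channel. Of these, 3 fell in each comparison on the TMM scale (medians -0.47, -0.47 and -0.39). Over all genes tested, 7.88%, 25.7% and 10.1% fell. Of all 73 members, 14, 33 and 14 fell, with medians of -0.29, -0.47 and -0.22. Library totals gave 0, 0 and 1 of the 5 lower and 0, 2 and 0 higher. Several of these calls are lost without single libraries, so the counts show no trait of the 5 genes. Rps2, next to Rps9 at the mRNA entry, stood at 91.4 and 99.1 CPM in FF and 62.4 and 68.9 in KO (-0.54 ± 0.13, adjusted p = 0.011), a call lost without FF 2 or KO 1. In p53KO it stood at 93.6 and 91.5 CPM and in DKO at 57.5 and 68.0 (-0.56 ± 0.13, adjusted p = 0.0016; 0.20 with library totals). Rps23, at the decoding centre itself, stood at 224 and 221 CPM in FF and 167 and 154 in KO (-0.47 ± 0.12, adjusted p = 0.015), a call lost without FF 1 (adjusted p = 0.072), FF 2 (0.068) or KO 2 (0.10). After tamoxifen the call for Rps2 (DKO TAM against p53KO TAM) is lost without any 1 of the 4 libraries (adjusted p 0.055 to 0.32) and with DESeq2 (0.097).

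Rps4x, encoded on the X chromosome, stood at 83.7 and 84.1 CPM in FF and 60.4 and 47.0 in KO (-0.64 ± 0.15, adjusted p = 0.0085), a call lost without KO 2 (adjusted p = 0.099). After tamoxifen the 2 groups were tight and far apart, at 87.6 and 87.0 CPM in p53KO TAM and 55.2 and 56.8 in DKO TAM (-0.64 ± 0.15, adjusted p = 0.0060; -0.29 with library totals, adjusted p = 0.15). That call was kept without any one library. Its call in DKO against p53KO is lost without DKO 2 (adjusted p = 0.22), DKO 3 (0.061) or p53KO 2 (0.40) and with DESeq2 (0.11).

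Rpl39, a small protein that lines the exit tunnel of the large subunit (chromosome X), stood at 17.5 and 14.2 CPM in p53KO TAM and 7.18 and 8.63 in DKO TAM. The log2 fold change was -1.02 ± 0.21 (adjusted p = 0.0031), and -0.67 with library totals (adjusted p = 0.027). Without p53KO TAM 1 the call is lost (adjusted p = 0.061). In FF it stood at 21.7 and 19.7 CPM and in KO at 14.9 and 10.2 (-0.71 ± 0.21, adjusted p = 0.029), a call lost without FF 1, FF 2 or KO 2. In p53KO and DKO it did not separate, at 14.8 and 14.4 against 13.7 and 14.9 CPM. The difference between the DKO and the DKO TAM effect was 0.99 ± 0.29 (adjusted p = 0.018), and 1.40 with library totals (adjusted p = 0.0025). It is lost with DESeq2 and without DKO TAM 1, DKO 3 or p53KO TAM 1.

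Rpl18 of the large subunit was the 1 member that rose after tamoxifen. It stood at 29.1 and 33.2 CPM in p53KO TAM and 46.1 and 43.4 in DKO TAM, a log2 fold change of 0.53 ± 0.14 (adjusted p = 0.018), and 0.88 with library totals (adjusted p = 0.00039). Without DKO TAM 1 (adjusted p = 0.083) or p53KO TAM 1 (0.16) it was no longer called. In KO against FF it stood at 32.3 and 35.5 against 30.02 and 27.6 CPM, which did not pass on the TMM scale (0.24, adjusted p = 0.33) but was called higher against the summed members (0.59, adjusted p = 0.025). In p53KO it stood at 34.1 and 27.0 CPM and in DKO at 27.8 and 28.7, which overlap.

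**Figure D4:**
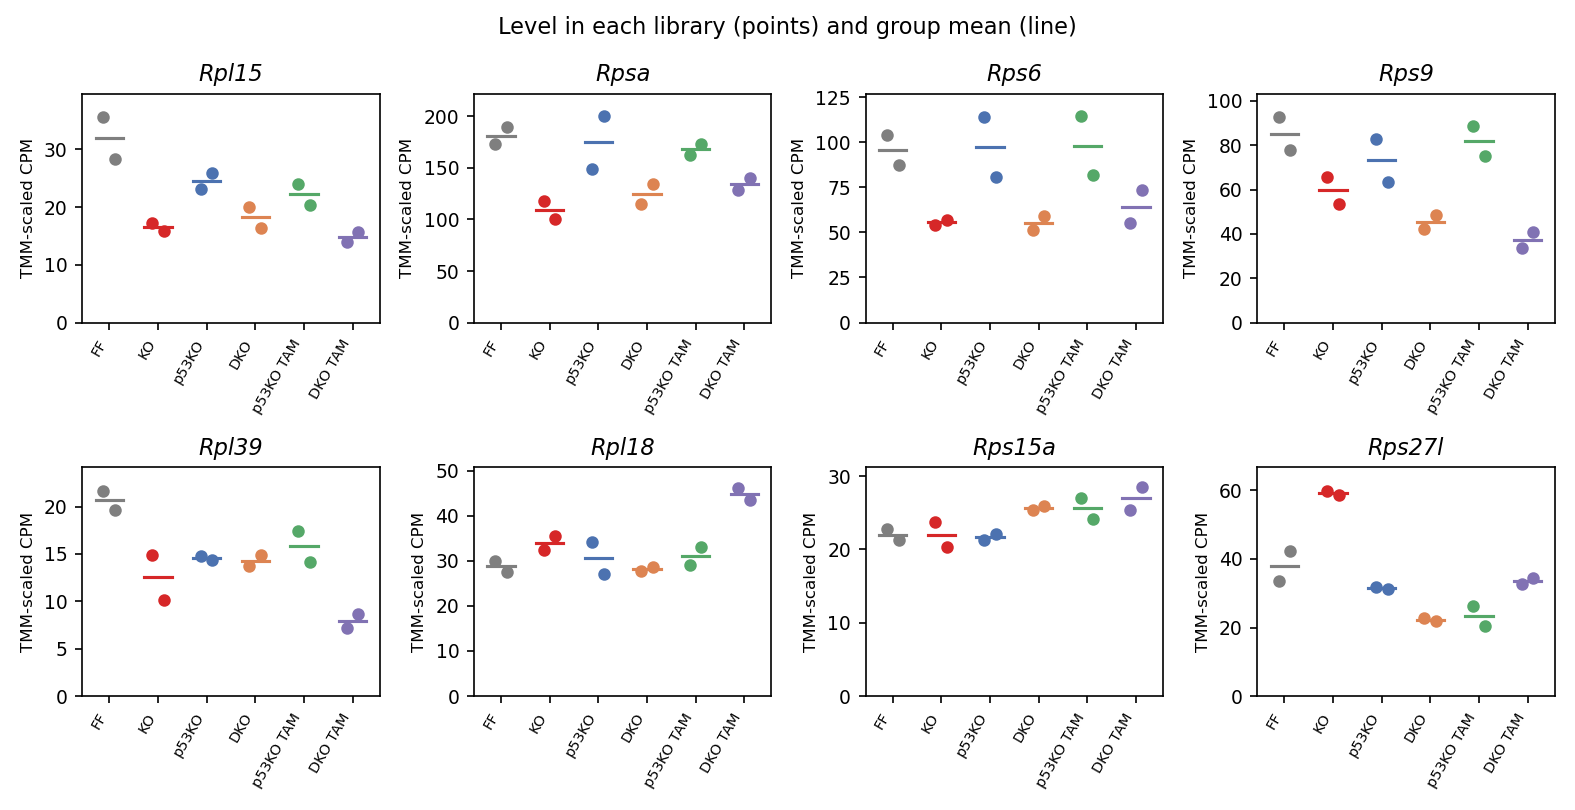
Level of 8 genes in each library (points) and group means (lines), in TMM-scaled CPM from 0. Rpl15, Rps6 and Rps9 are lower in the deleted livers of each pair, Rpsa was called lower in KO and DKO but not in DKO TAM, Rpl39 is lower in KO and DKO TAM and level in DKO, Rpl18 is highest in DKO TAM, Rps15a passed in none of the 3 comparisons on this scale, and the paralogue Rps27l is highest in KO; with library totals the log2 fold changes of Rpl15, Rpsa, Rps9 and Rps27l in DKO against p53KO are above 0, and Rps15a is called higher in DKO and DKO TAM.

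Comparing DKO with p53KO, Rpl34 and Rps21 had the lowest log2 fold changes on the TMM scale. Rpl34, which is lowly counted, stood at 3.41 and 1.5 CPM in p53KO and 0.932 and 0.769 in DKO (-1.55 ± 0.47, adjusted p = 0.012). Rps21, a small subunit surface protein, stood at 45.2 and 23.1 CPM in p53KO and 13.3 and 15.6 in DKO (-1.26 ± 0.32, adjusted p = 0.0075; -0.49 with library totals, adjusted p = 0.19). In both genes the first p53KO library stood far above its partner. That also held for Rpl36, Rpl37 and Rpl11, at 20.3 against 5.36, 28.5 against 9.86 and 29.5 against 13.3 CPM, and the groups of these 3 overlap. Without that library the adjusted p was 0.34 for Rpl34, 0.078 for Rps21 and 0.57 for Rpl11.

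Calls that outlasted each left-out library in DKO against p53KO numbered 12, all on the TMM scale and all lost with library totals. Among them was Rpl10, which joins the large subunit late in its assembly, at 95.0 and 109 CPM in p53KO and 49.5 and 58.2 in DKO (-0.92 ± 0.13, adjusted p = 1.7e-05; -0.16 with library totals). Rpl35a stood at 15.2 and 14.6 CPM against 8.56 and 7.52 (-0.89 ± 0.19, adjusted p = 0.00086). Rpl28 stood at 45.5 and 27.9 CPM against 17.9 and 19.2 (-0.998 ± 0.20, adjusted p = 0.00070). Both DKO libraries lie below both p53KO libraries for each of these 3. How many of all genes tested keep a lower call without each library was not counted. With all libraries, 25.7% of all genes were called lower there on the TMM scale. The number of such members thus says nothing particular of the set.

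Against the summed members, Rpl10 (-0.47, adjusted p = 0.023), Rpl28 (-0.51, adjusted p = 0.029) and Rps21 (-0.77, adjusted p = 0.0087) remained lower in DKO. Rps15a, of the small subunit body, was higher on that scale (0.71, adjusted p = 0.0024), as were Rpl9 (0.67, adjusted p = 0.0018), Rpl41 (0.56, adjusted p = 0.016), Rps13 (0.68, adjusted p = 0.044) and Rpl35 (0.44, adjusted p = 0.035). In TMM-scaled CPM, Rps15a stood at 21.3 and 22.1 in p53KO and 25.3 and 25.9 in DKO, and Rpl9 at 44.5 and 40.7 and 50.5 and 47.5. Neither passed on the TMM scale (adjusted p 0.19 and 0.21), and both were higher with library totals (1.01 and 0.96). Against the summed members, then, 3 were called lower and 5 higher in DKO, where 9.85% and 44.1% of all genes were. These calls were not repeated with a library left out. Whether the members shifted by unequal amounts as a set was not tested.

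**Figure D5:**
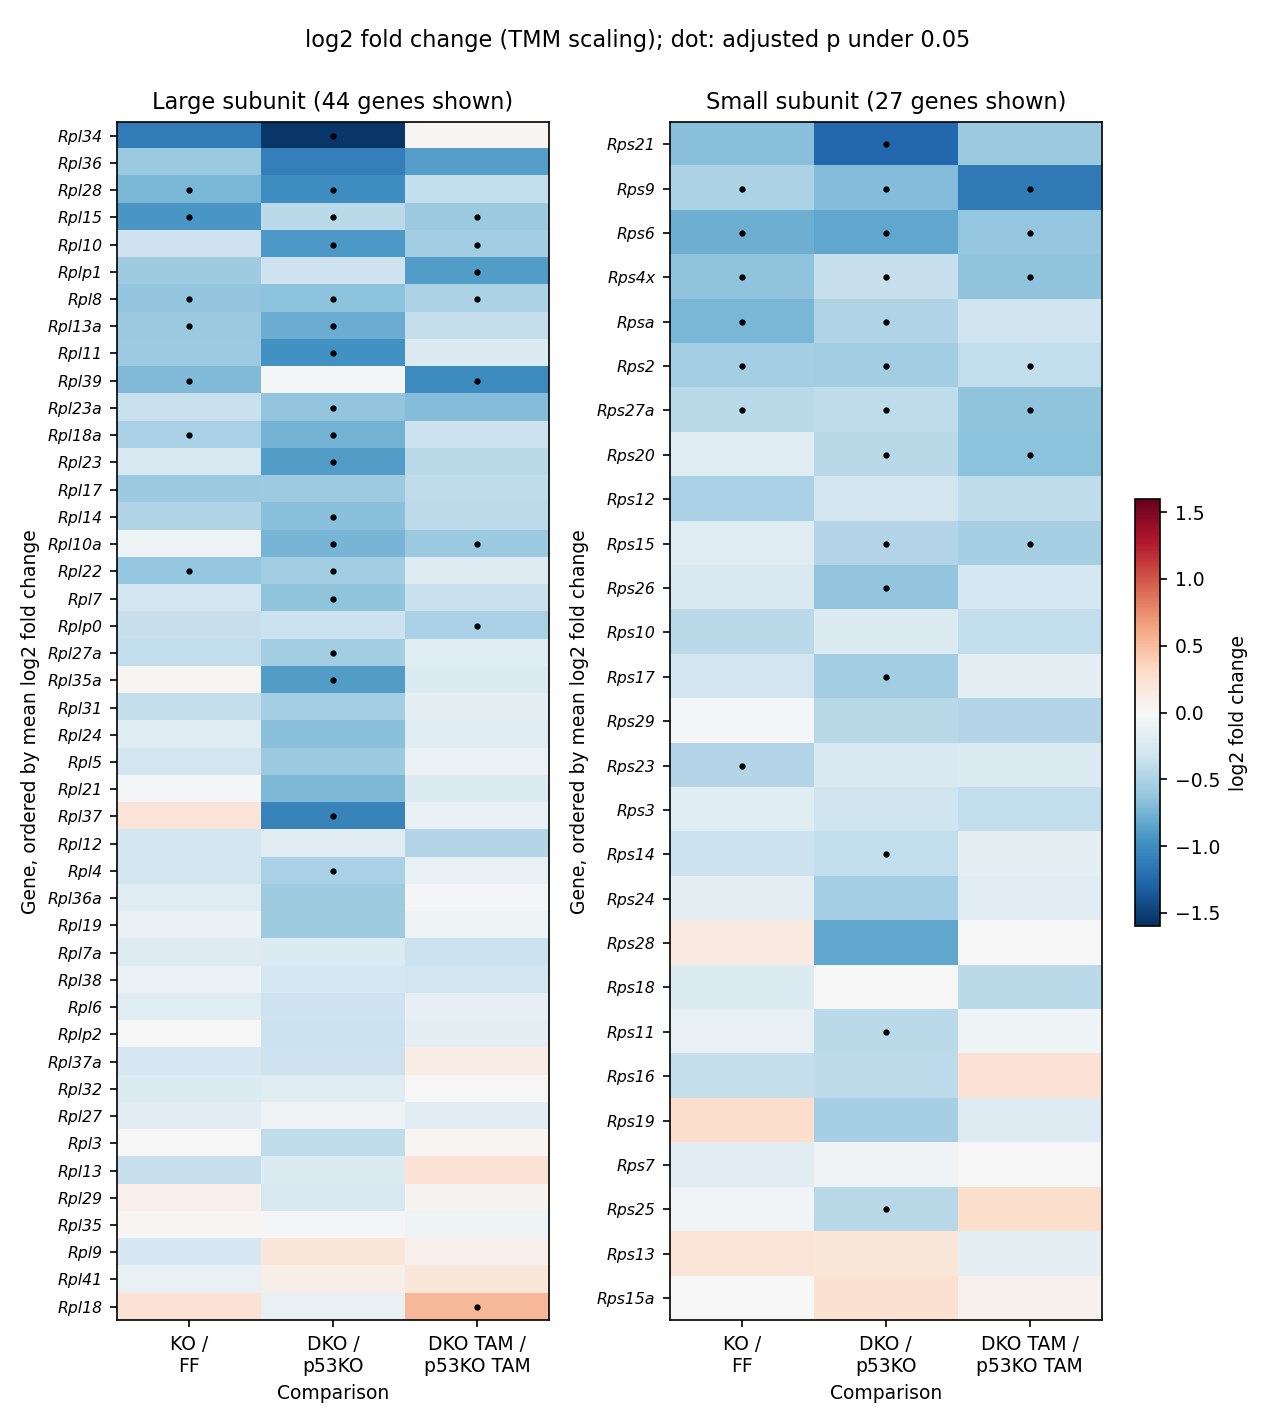
log2 fold change (TMM scaling) of the 44 tested large subunit genes and 27 of the 29 tested small subunit genes (2 are not shown), in the 3 comparisons, ordered by their mean; blue is lower and red higher in the deleted livers, and dots mark an adjusted p under 0.05. Blue prevails in all 3 columns and Rpl18 is the 1 red cell with a dot; with library totals the DKO column turns, with 28 higher and 0 lower calls.

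The list used here of ribosomal proteins known to bind Mdm2 held Rpl5, Rpl11, Rpl23, Rps7 and Rpl26, and need not be complete. Of these, Rpl26 was not tested. On the TMM scale none of the 4 was called in KO against FF or in DKO TAM against p53KO TAM. Rpl5 stood at 291 and 177 CPM in FF and 188 and 194 in KO, and Rpl23 at 33.4 and 22.1 in FF and 29.3 and 16.5 in KO, so these groups overlap. Rps7 stood at 150 and 152 CPM against 141 and 127 (-0.17 ± 0.13 on the TMM scale, adjusted p = 0.42). In DKO against p53KO, Rpl11 (-0.97, adjusted p = 0.042) and Rpl23 (-0.89, adjusted p = 0.030) were called lower, each lost without p53KO 1 (adjusted p 0.57 and 0.26) or DKO 2 (0.20 and 0.13), with upper quartile scaling, with no filter on low counts and with library totals (-0.20 and -0.13). The call of Rpl23 is also lost without DKO 3 (adjusted p = 0.090). Rpl5, the partner of Rpl11 and of the small ribosomal RNA of the large subunit, missed the threshold there (-0.59 on the TMM scale alone, adjusted p = 0.056). Rps7 stayed at 122 and 147 CPM in p53KO and 128 and 131 in DKO (-0.05 on the TMM scale, 0.71 with library totals).

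The stalk that recruits elongation factors is built from Rplp0, Rplp1 and Rplp2. In DKO TAM against p53KO TAM, Rplp1 stood at 84.8 and 121 CPM against 238 and 142 (-0.89 ± 0.22, adjusted p = 0.017), and Rplp0 at 223 and 271 against 354 and 355 (-0.52 ± 0.14, adjusted p = 0.018). Both calls are lost with library totals and without p53KO TAM 1 or DKO TAM 1, and that of Rplp0 also without p53KO TAM 2. Rplp2 overlapped between the groups (103 and 103 against 125 and 103 CPM). In KO against FF, Rplp1 (-0.57, adjusted p = 0.12) and Rplp0 (-0.37, adjusted p = 0.10) did not pass and Rplp2 stood at 0.01. The 3 stood, for DKO against p53KO, between -0.34 and -0.33 on the TMM scale and at 0.42 to 0.43 with library totals.

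Rps27a, made as a fusion with ubiquitin, stood at 132 and 153 CPM in FF and 102 and 109 in KO (-0.44 ± 0.13, adjusted p = 0.036), a call lost without FF 2 (adjusted p = 0.26), KO 1 (0.17) or KO 2 (0.084) and with DESeq2 (0.055). Its call in DKO against p53KO is lost without DKO 2 (adjusted p = 0.092), DKO 3 (0.052) or p53KO 2 (0.061). It stood at 156 and 139 CPM in p53KO TAM and 85.1 and 105 in DKO TAM (-0.64 ± 0.13, adjusted p = 0.0031), a call kept without any one library. Rpl22 stood at 122 and 116 CPM in FF and 85.8 and 68.9 in KO (-0.62 ± 0.14, adjusted p = 0.0065), a call lost without KO 2 (adjusted p = 0.080). Its paralogue Rpl22l1 stood at 15.3 and 16.1 CPM in p53KO and 8.47 and 7.18 in DKO (-1.002 ± 0.24, adjusted p = 0.0020; -0.24 with library totals).

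Rps27l, the paralogue of Rps27 and a known transcriptional target of p53, was called higher in KO and DKO TAM. It stood at 33.6 and 42.3 CPM in FF and 59.9 and 58.6 in KO, a log2 fold change of 0.64 ± 0.15 (adjusted p = 0.0084) that is lost without FF 1 (adjusted p = 0.10). In p53KO it stood at 31.9 and 31.3 CPM and in DKO at 22.7 and 22.0, a log2 fold change of -0.50 ± 0.15 on the TMM scale (adjusted p = 0.012) but 0.26 with library totals (adjusted p = 0.13), close to the medians of the members there (-0.47 and 0.29). The lower call of Rps27l in DKO is also lost with upper quartile scaling (-0.28, adjusted p = 0.13) and without p53KO 1 or DKO 3. The DKO effect less the KO effect was -1.14 ± 0.21 (adjusted p = 0.0014). With library totals that difference was -0.63 (adjusted p = 0.038), and on the TMM scale it stayed called without any one library. In p53KO TAM it stood at 26.3 and 20.4 CPM and in DKO TAM at 32.8 and 34.5 (0.51 ± 0.15, adjusted p = 0.029). That call is lost without p53KO TAM 2, DKO TAM 1 or DKO TAM 2 and with DESeq2 (adjusted p = 0.081). The paralogues Rpl10l and Rpl39l had 0 counts in every library, and Fau, Rps3a1 and Gnb2l1, the gene of Rack1, were not called on the TMM scale in any of the 3 comparisons.

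Members were also sorted by the sequence at their start. Of 12 tested genes with the C and T run, 3, 6 and 2 were lower in the 3 comparisons on the TMM scale, with medians of -0.32, -0.38 and -0.39; of 42 without it at the annotated base, 8, 17 and 8 were lower, with medians of -0.27, -0.50 and -0.19. Genes with over 50% of windows shared with other genes had medians of -0.33, -0.55 and -0.22, and the other 48 had -0.26, -0.46 and -0.22. Over all genes tested, 7.88%, 25.7% and 10.1% were called lower on the TMM scale in the 3 comparisons. The classes were not summarised with library totals, where the median of the 73 in DKO against p53KO turns from -0.47 to 0.29. Differences between the classes were not tested.

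A further list holds mRNAs of translation factors and other proteins known to carry the same start tract. Of its 19 tested genes, 7 fell in KO against FF, 9 in DKO against p53KO and 5 in DKO TAM against p53KO TAM on the TMM scale (36.8%, 47.4% and 26.3%, where 7.88%, 25.7% and 10.1% of all genes did), with medians of -0.29, -0.38 and -0.12; with library totals 3, 1 and 3 were lower and 2, 9 and 7 higher. Eef2, the factor that moves the ribosome along the mRNA, stood at 1151 and 1159 CPM in FF and 503 and 519 in KO, 1041 and 1083 in p53KO and 492 and 512 in DKO, and 1285 and 1454 in p53KO TAM and 570 and 639 in DKO TAM. Its log2 fold changes were -1.18 ± 0.13, -1.08 ± 0.13 and -1.18 ± 0.13, and with library totals it was still called lower in all 3 (-0.92, -0.32 and -0.83). Eef1a1, which brings aminoacyl-tRNA to the ribosome, fell by 0.71, 0.99 and 0.88 on the log2 scale, and with library totals the call is lost in DKO (-0.22, adjusted p = 0.12).

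Of 73 factors that assemble ribosomes, 6 rose and 2 fell in KO against FF (8.22% and 2.74%, where 6.92% and 7.88% of all genes did), on the TMM scale. In DKO against p53KO 14 rose and 7 fell (19.2% and 9.59%, against 25.7% of all genes each way), and in DKO TAM against p53KO TAM 12 rose and 0 fell (16.4%, against 8.61% higher and 10.1% lower); library totals gave 26, 64 and 42 higher. Their medians were 0.12, 0.14 and 0.24 on the TMM scale. Nolc1, a nucleolar chaperone of snoRNPs, stood at 17.4 and 15.7 CPM in FF and 33.2 and 24.97 in KO (0.82 ± 0.21, adjusted p = 0.016), and at 16.6 and 24.6 in p53KO TAM and 37.1 and 45.6 in DKO TAM (1.02 ± 0.20, adjusted p = 0.0020). Lsg1, a GTPase of late large subunit maturation, was higher in the same comparisons (0.79 and 0.87, adjusted p 0.010 and 0.0032). Rcl1 went the other way, from 254 and 224 CPM in p53KO to 66.6 and 64.2 in DKO (-1.87 ± 0.13, adjusted p = 9.7e-09; -1.11 with library totals). Of 15 genes of RNA polymerase I transcription, 3, 2 and 3 rose and 0, 1 and 0 fell on the TMM scale. Over all genes tested, 6.92%, 25.7% and 8.61% rose and 7.88%, 25.7% and 10.1% fell. Among the genes that rose were the initiation factor Rrn3 in KO (0.68 ± 0.17, adjusted p = 0.012) and the subunit gene Polr1a in DKO TAM (0.52 ± 0.14, adjusted p = 0.016).

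The mitochondrial ribosome has its own set of nuclear-encoded proteins, 76 by name and all tested. On the TMM scale their medians were 0.15 in KO against FF, -0.21 in DKO against p53KO and 0.19 in DKO TAM against p53KO TAM. Of them, 4, 1 and 13 were called higher and 0, 19 and 1 lower. Over all genes tested, 6.92%, 25.7% and 8.61% were higher and 7.88%, 25.7% and 10.1% lower. The 19 lower calls in DKO against p53KO thus lie near the share of all genes. With library totals the medians of these 76 genes were 0.41, 0.56 and 0.54, against 0.28, 0.77 and 0.36 for all genes. Mrpl16 stood at 37.9 and 43.5 CPM in FF and 68.2 and 73.7 in KO (0.80 ± 0.14, adjusted p = 0.0014). The 2 sets were not tested against each other.

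Among 19 tested genes of growth control, 2 rose and 1 fell in KO against FF, 3 rose and 7 fell in DKO against p53KO, and 1 rose and 2 fell in DKO TAM against p53KO TAM on the TMM scale; library totals gave 3, 12 and 4 higher. Over all genes, 6.92%, 25.7% and 8.61% were higher and 7.88%, 25.7% and 10.1% lower with TMM. Sesn2 and Ddit4, both inhibitors of mTOR signalling, rose in KO, from 2.71 and 4.49 to 12.7 and 14.8 CPM (1.89 ± 0.29, adjusted p = 0.00033) and from 2.26 and 1.04 to 11.2 and 12.7 CPM (2.90 ± 0.50, adjusted p = 0.0016). Larp1, which binds the start tract, stood at 330 and 298 CPM in p53KO and 193 and 199 in DKO (-0.68 ± 0.12, adjusted p = 0.00023; 0.09 with library totals). Mtor itself stood at 190 and 194 CPM against 117 and 127 (-0.66 ± 0.12, adjusted p = 0.00025; 0.11 with library totals).

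Control groups were compared in the same way. The p53KO and FF groups differ in age and in the headers of the deposited counts as well as the p53 label, so these cannot be told apart. In p53KO against FF, the median log2 fold change of the 73 was 0.01 and none was called. At an unadjusted p under 0.05 (edgeR) 4 were lower and 0 higher, and 0 were called with DESeq2. Lower calls made up 0.27% of all genes tested and higher calls 0.592%. In p53KO TAM against p53KO, 1 member was higher and 1 lower, where 7.55% and 8.22% of all genes were. Rpl12 stood at 173 and 162 CPM in p53KO TAM and 135 and 102 in p53KO (0.50 ± 0.16, adjusted p = 0.048). Rpl35a stood at 8.30 and 10.6 CPM in p53KO TAM and 15.2 and 14.6 in p53KO (-0.67 ± 0.20, adjusted p = 0.031; adjusted p = 0.051 with library totals). Both calls are lost when single libraries are left out and with DESeq2. The age of the tamoxifen groups is not in the titles, so age and treatment cannot be told apart.

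The effect of the deletion in livers without and with the p53-/- label, and after lasting against recent deletion, was compared gene by gene. Age and the headers of the control groups' counts differ in the first of these contrasts. In the second, the kind of Cre and the tamoxifen treatment differ, and the age of the tamoxifen groups is not given. These cannot be told apart from the time since the deletion. Subtracting the KO effect from the DKO effect, 2 of 73 members were called lower and 0 higher on the TMM scale (4 and 2 at an unadjusted p under 0.05, 0 and 0 with DESeq2), where 12.9% and 9.76% of all genes were. Subtracting the DKO TAM effect, 3 were called lower and 1 higher, where 14.2% and 13.4% of all genes were. The medians of the 73 were -0.19 and -0.21 on the TMM scale and 0.33 and 0.21 with library totals, so their direction turns with the scale.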

How the data were processed

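RNA of whole mouse liver was sequenced in 12 libraries with a stranded total RNA kit, per the labels. The deposited values are raw counts of reads per gene; per the submitters' processing notes the authors used CASAVA 1.82, HISAT2 and featureCounts on mm10 (GRCm38). Headers of 4 files name featureCounts 1.6.4 with no strand or multiple-mapping option, and 8 give no program line, so reads shared with pseudogenes or antisense genes can be lost or misplaced.

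Tests were run on the counts with edgeR 4.0.16 under R 4.3.3: genes kept by filterByExpr (minimum count 10), TMM scaling, 1 model of 6 group means fitted to the 12 libraries (6 residual degrees of freedom; biological coefficient of variation, common to all genes, 0.124), and the robust quasi-likelihood F test. Unless another setting is named, p-values of genes in the text are from this test. They were adjusted by Benjamini-Hochberg over all 13693 genes tested, and genes under 0.05 were called. With the summed members as library size, 13548 genes were tested. The SE of a log2 fold change was derived from it and the F statistic. The code was tested on simulated data.

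Alternatives were RLE, upper quartile, library total and ribosomal protein sum scaling, no filter, dropping genes of ribosomal RNA, haemoglobin and the mitochondrial genome, DESeq2 1.42.0, only the libraries compared, a replicate block, and each library left out. By rule, the text could name the 6 highest and 6 lowest fold changes of each comparison, the 4 highest and 4 lowest levels, members of known role (Mdm2 binding, stalk, ubiquitin fusion and the like), all listed paralogues, and up to 4 genes with the smallest p per other list; fewer are printed, and values of some single genes are not reported here. Members named for calls in all 3 comparisons, under all scalings, without each library or against the summed members were chosen after their values were seen. Members and lists were chosen with earlier results of these data known. Start sequences come from RefSeq (GRCm38.p6), and shared windows from GENCODE transcripts. No library was left out; the precision of each value is limited by totals of 4939408 to 8776369 counts and 2 libraries a group.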

Additional observations from a re-analysis of the deposited data

Results flagged for a closer look

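For 5 members described here the effect of the deletion differed between experiments by a test of the difference itself (edgeR, TMM scaling). In livers with rather than without the p53-/- label, the effect was lower by a log2 difference of -0.60 ± 0.18 for Rpl10 (adjusted p = 0.026) and -0.90 ± 0.27 for Rpl35a (adjusted p = 0.023). Age differs between these livers too. Rpl10 stood at 95.5 and 97.7 CPM in FF and 82.1 and 71.97 in KO, against 95.0 and 109 in p53KO and 49.5 and 58.2 in DKO. Rpl35a stood at 14.7 in both FF libraries and 15.2 and 14.4 in KO, against 15.2 and 14.6 in p53KO and 8.56 and 7.52 in DKO; it was also low in both tamoxifen groups, at 8.30 and 10.6 and 8.01 and 8.13 CPM.

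Between the DKO and the DKO TAM effect, the difference was -0.65 ± 0.21 for Rpl18 (adjusted p = 0.028), 0.99 ± 0.29 for Rpl39 (0.018) and -0.73 ± 0.20 for Rps25 (0.012). Tamoxifen treatment and the kind of Cre differ between these livers too, and age may. Rps25, of the small subunit head, stood at 48.8 and 51.0 CPM in p53KO and 35.4 and 38.1 in DKO, and at 42.5 and 49.2 in p53KO TAM and 49.2 and 62.5 in DKO TAM.

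Of these 5 differences, only that of Rpl39 is also called with library totals and with upper quartile scaling, and only that of Rps25 with DESeq2. Each is lost when single libraries are left out. These are FF 1, FF 2, KO 1, DKO 2 or p53KO 2 for Rpl10 and FF 1, FF 2, KO 1, KO 2, DKO 3 or p53KO 1 for Rpl35a. They are DKO 2, DKO 3, p53KO 1, DKO TAM 1 or p53KO TAM 1 for Rpl18, and DKO 3, DKO TAM 1 or p53KO TAM 1 for Rpl39. They are DKO TAM 2 or p53KO TAM 1 for Rps25.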

How the results depend on the processing

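Depth and 2 libraries a group limit these results; members under about 5 CPM rest on few counts. Members called lower in KO against FF numbered 14, and 3 with library totals, 1 with ribosomal protein sum scaling and 4 to 11 with a library left out; higher calls were 1 with library totals and 2 with the sum. In DKO against p53KO, 33 were lower, and 0 with library totals, 15 with upper quartile scaling, 3 with the sum and 14 to 41 with a library left out; higher calls were 28, 2 and 5 with those scalings. In DKO TAM against p53KO TAM, 14 were lower, and 2 with library totals, 3 with the sum and 3 to 12 with a library left out (3 without p53KO TAM 1); higher calls were 8 and 3 with those scalings, 0 with DESeq2 and 0 to 1 with a library left out. DESeq2 gave 11, 28 and 11 lower calls in the 3 comparisons.

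For the DKO effect less the KO effect, lower calls were 0 with library totals, upper quartile, sum scaling and DESeq2 and 0 to 2 with a library left out, and higher calls 14 with library totals, 2 with upper quartile and 0 to 1 with a library left out. For the DKO effect less the DKO TAM effect, lower calls were 0 with library totals, upper quartile and sum scaling, 1 with DESeq2 and 0 to 11 with a library left out (11 without p53KO 2), and higher calls 9 with library totals, 0 with DESeq2 and 0 to 2 with a library left out. In p53KO TAM against p53KO, lower calls were 0 with library totals, upper quartile, DESeq2 and only the libraries compared, and 0 to 7 with a library left out (7 without p53KO 2); higher calls were 3, 4, 0 and 2 with those settings, 0 with sum scaling and 0 to 1 with a library left out.

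With library totals these genes turned to values above 0 in DKO against p53KO (log2): Rpl35 0.75, Rps18 0.75, Rps7 0.71, Rpl18 0.65, Rps23 0.52, Rplp0 0.42, Rplp2 0.42, Rps4x 0.40, Fau 0.40, Rps27a 0.36, Rpl15 0.34, Rpsa 0.28, Rps27l 0.26, Rpl4 0.24, Rpl22 0.20, Rps2 0.20, Rpl8 0.11 and Rps9 0.0732. With sum scaling Rpl35 (0.44), Rps4x (0.0801), Rps27a (0.0583) and Rpl15 (0.0441) turned too. Rps7 turned to 0.34 with library totals in DKO TAM against p53KO TAM. These lists hold only genes followed by name that were called with TMM or with the other scale, so they are not complete. Over all 73 members, the sign held under TMM, RLE, upper quartile and library total scaling for 49 in KO against FF. It held for 17 in DKO against p53KO and for 40 in DKO TAM against p53KO TAM. The log2 ratio of the summed members was -0.35 in KO against FF, -0.46 in DKO against p53KO and -0.30 in DKO TAM against p53KO TAM with TMM, and -0.10, 0.30 and 0.05 with library totals. The log2 ratio of large to small subunit counts was 0.0632 and 0.0449 without the 3 most counted members in KO and DKO TAM, against 0.03 and 0.02 with them. The cause was not tested beyond the construction of each scale.

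Libraries of the 2 groups of an experiment were also paired by the replicate numbers of their descriptions. In the 8-week experiment this paired p53KO 1 with DKO 2. Deviations of paired libraries from their group means correlated at 0.11, -0.0706 and -0.013 in the 3 experiments. With 2 libraries a group, these values cannot show whether paired libraries share a source. With the description's replicate number as a block, 12, 32 and 11 members were lower and 0, 0 and 1 higher in the 3 comparisons. In p53KO TAM against p53KO, 0 were lower and 0 higher with that block.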
